A study of Hordeum vulgare with 12 samples.

Results

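Barley (Hordeum vulgare) accession BCS24 was compared under drought and in control, with leaf RNA of 3 libraries in each condition. The genes described are those with at least 1 FPKM (a level in fragments, scaled to library size and transcript length) in at least 3 of the 12 libraries of the series. That rule kept 17342 of the 30157 genes in the deposited table, and the other 12815 were not tested. The remaining 6 libraries belong to accession BCS8, 3 under drought and 3 in control. They entered the estimate of the spread, and their drought effect is set beside that of BCS24. All 12 libraries are leaf, and both conditions of BCS24 share the accession, so drought is the labelled difference between them. The labels give the control as "ck", read here as control. How drought was applied, the plants' age and whether the replicates came from separate plants were not stated there, and p-values therefore measure the spread between these libraries, which may be technical. Each library held 49553836 to 61212440 counts.

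Plants that lose water make more of the hormone abscisic acid (ABA), which closes stomata and switches on protective genes. ABA is cut from carotenoids in the plastid by 9-cis-epoxycarotenoid dioxygenases, the step that usually limits its production. Bound ABA lets its receptors hold back type 2C protein phosphatases, which frees SnRK2 kinases to act on transcription factors of the bZIP class. Leaves short of water also shift sugar, starch and amino acid metabolism, and cereals can make the osmoprotectant glycine betaine from choline, whose methyl groups come from S-adenosylmethionine.

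Under drought 243 genes of BCS24 were higher (1.40% of tested genes) and 217 were lower (1.25%), 460 in all (2.65%), at an adjusted p under 0.05. The test was edgeR's quasi-likelihood test on counts with Benjamini-Hochberg adjustment over the 17342 genes. Fold changes are log2 of drought over control with a standard error, and levels are counts scaled to library size by TMM (CPM), which are not corrected for length. A change of at least 2-fold was reached by 146 higher genes (0.842%) and 124 lower ones (0.715%). The 3 drought and 3 control libraries did not overlap for any of the 460 genes, while 26.8% of all tested genes lacked overlap. Where lack of overlap is mentioned for a gene below, it describes the values and is no separate support. The median log2 fold change over all tested genes was -0.0013. With limma on log2(FPKM + 1) the calls split into 166 higher and 544 lower, and the median of all genes moved to -0.10. None of the 460 genes changed sign under any of the 23 alternative settings that gave it a value. Genes without overlap can hardly change sign when a library is left out, and BCS8 libraries are not part of this fold change. The kept signs are therefore little support.

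Of the 460 genes, 154 (33.5%) carry a description, 269 (58.5%) carry only gene ontology (GO) terms or a KEGG orthology (KO) number, and 37 (8.04%) carry none of these. Over all tested genes the shares were 29.2, 62.5 and 8.29%. Lists below are genes sharing a GO term, and families are genes sharing a KO number. In 71 of 75 lists at least 5 genes were tested, and in 22 of those 71 no gene passed. Counts in a list are to be read against the 1.40% higher and 1.25% lower of all tested genes.

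The 6 BCS24 libraries did not vary evenly. Control libraries 2 and 3 correlated at 0.9821 across genes (log scale), whereas control library 1 correlated with them at 0.961 and 0.9616 and with drought libraries 1 and 3 at 0.9637 and 0.9667. Ribosomal RNA took 0.202, 0.658 and 0.599% of counts in the drought libraries, against 0.531, 2.07 and 1.45% in control. The drought libraries had 15508 ± 176 genes at 1 FPKM or more, against 15977 ± 119 in control (SD, n = 3 each). Their 10 most counted genes took 8.12 ± 0.587% of counts under drought, against 6.60 ± 0.546% in control (SD, n = 3 each). Neither pair overlapped, at an exact permutation p of 0.1, the smallest that 3 against 3 allows. The number of genes past the threshold fell to 38 and 67 without drought library 1 or 2 and to 27 and 19 without control library 2 or 3. It was 364 without drought library 3 and 408 without control library 1, and 286 of the 460 genes passed without control library 1 too. With the ribosomal RNA share as a covariate 15 genes passed, all of them among the 460. The part of these library differences in the results was not tested. The genes are described in the order of their roles, and each group is followed by how many of its named genes still passed when a library was left out.

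Leaf markers were present in every library. They were 86 genes annotated to the photosystems or light harvesting, or described as ribulose bisphosphate carboxylase small chain or chlorophyll a-b binding protein. These summed to 62886, 53348 and 86935 FPKM in the drought libraries, against 61755, 47850 and 57119 FPKM in control. Of their 65 tested genes, 2 were higher and 1 was lower. The 227 markers of dividing tissue summed to 795, 798 and 850 FPKM under drought, against 918, 969 and 975 FPKM in control, and 0 of their 95 tested genes were higher and 1 was lower. In bulk leaf, fewer cells of a type and less RNA per cell cannot be told apart.

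Some genes with the KO number of an abscisic acid synthesis enzyme rose, and the most abundant gene with that number did not. Of 6 tested 9-cis-epoxycarotenoid dioxygenases (K09840) 4 were higher under drought and 0 were lower. The most strongly counted of the 4, HORVU5Hr1G092850, stood at 5.96, 21.9 and 6.5 CPM in the drought libraries, against 0.568, 0.793 and 1.15 CPM in control. Every drought library was above every control library, with drought library 2 the highest. The log2 fold change was 3.78 ± 0.78 (adjusted p 0.0385). HORVU5Hr1G054970 had 3.63, 11.5 and 3.04 CPM under drought, against 0.317, 0.415 and 0.791 CPM in control (log2 fold change 3.58 ± 0.77, adjusted p 0.0432). HORVU5Hr1G044510 had 2.69, 7.64 and 2.35 CPM under drought, against 0.217, 0.253 and 0.593 CPM in control, and HORVU5Hr1G008050 had 1.2, 2.34 and 2.3 CPM under drought, against 0.251, 0.577 and 0.435 CPM in control, with log2 fold changes of 3.58 ± 0.73 and 2.21 ± 0.47. Drought library 2 was the highest for both, in the last gene only just above drought library 3. In BCS8 the 4 genes had log2 fold changes of 3.81, 3.70, 3.48 and 4.34. All 4 stayed low in absolute terms, at mean levels of 0.884 to 3.59 FPKM under drought. The family's most strongly expressed member, HORVU6Hr1G068720, had 2105, 1835 and 1742 CPM under drought, against 2246, 3434 and 2557 CPM in control, and it did not pass, at -0.54 (adjusted p 0.327). Its mean levels were 332 FPKM under drought and 524 FPKM in control. It is counted here by its KO number, and whether it acts in ABA synthesis was not tested. Leaving out drought library 1, 2 or 3 kept 0, 0 and 3 of the 4 genes past the threshold, and leaving out control library 1, 2 or 3 kept 0, 0 and 0. Without drought library 2, HORVU5Hr1G092850, HORVU5Hr1G054970 and HORVU5Hr1G044510 were at 2.89, 2.71 and 2.83 on the log2 scale.

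Transcripts of some receptors moved the other way. Of 7 tested ABA receptors (K14496), 3 were lower and 0 were higher. HORVU4Hr1G055220 had 1.73, 1.29 and 4.6 CPM in the drought libraries, against 19.4, 22.4 and 21.9 CPM in control, a fold change of -3.06 ± 0.49 on the log2 scale (adjusted p 0.0177). Its control libraries lay close together and its drought libraries were all several times lower. HORVU2Hr1G014670 had 5.66, 4.75 and 8.87 CPM under drought, against 16.3, 18.4 and 15.7 CPM in control (log2 fold change -1.39 ± 0.26). HORVU1Hr1G030390, the most abundant of the 3, had 63, 68.5 and 64.6 CPM under drought, against 84, 96.2 and 95.4 CPM in control (log2 fold change -0.49 ± 0.10). Of the 3 genes, 0, 0 and 2 passed without drought library 1, 2 or 3 and 3, 0 and 0 without control library 1, 2 or 3. Without drought library 3, the fold change of HORVU4Hr1G055220 was -3.78.

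Some of the phosphatases that the receptors hold back rose. Of 11 tested type 2C phosphatases (K14497) 3 were higher and 0 were lower, the family's median log2 fold change was 1.19, and 8 of the 11 were positive. HORVU4Hr1G060370 had 40.8, 92.7 and 26.7 CPM in the drought libraries, against 4.39, 6.94 and 5.22 CPM in control (log2 fold change 3.27 ± 0.45, adjusted p 0.0117). Drought library 2 was again the highest, and no drought library came near the control range. HORVU3Hr1G085930 had 94.2, 125 and 107 CPM under drought, against 30.7, 23.6 and 28.1 CPM in control (log2 fold change 1.99 ± 0.30). HORVU3Hr1G067380 had 64.5, 71.8 and 42.5 CPM under drought, against 16.1, 13.4 and 13.7 CPM in control (log2 fold change 2.05 ± 0.42). Both held narrow ranges in control and were higher in every drought library. In BCS8 these 3 phosphatases had log2 fold changes of 3.60, 1.72 and 1.27. The threshold was still passed by 1, 1 and 3 of the 3 genes without drought library 1, 2 or 3, and by 2, 0 and 0 without control library 1, 2 or 3. None of 13 tested SnRK2 kinases (K14498) passed, their log2 fold changes running from -0.28 to 1.08. Without drought library 2, HORVU4Hr1G060370 was at 2.61.

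**Figure D1:**
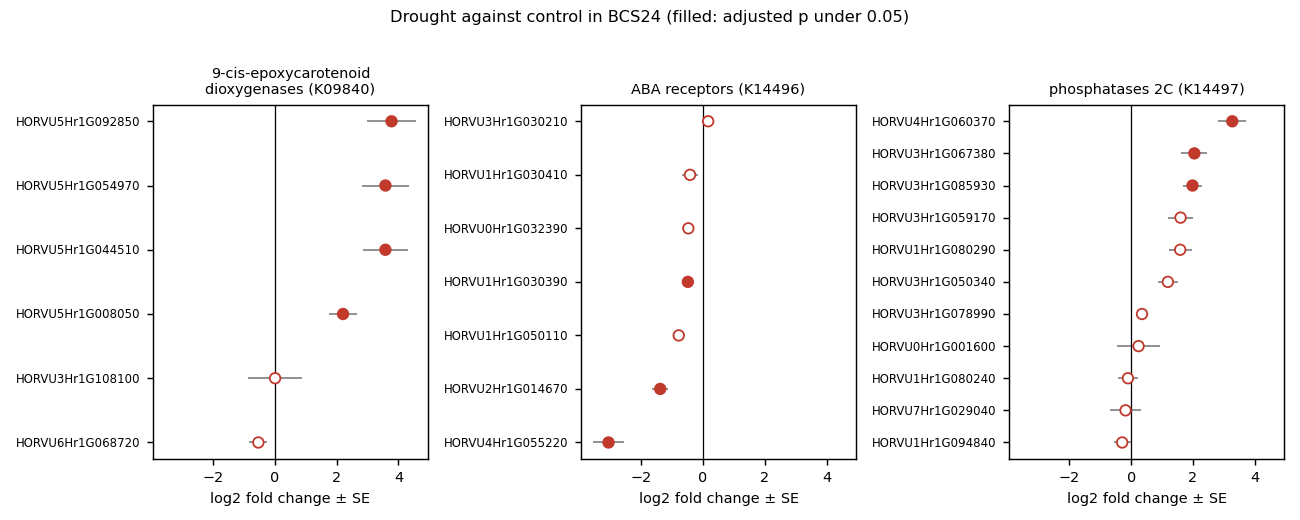
Log2 fold change of drought over control in BCS24 (x axis, with standard errors as lines) for each tested gene of 3 ABA families, dioxygenases, receptors and type 2C phosphatases. Filled circles passed an adjusted p of 0.05: 4 of 6 dioxygenases and 3 of 11 phosphatases lie right of 0, and 3 of 7 receptors lie left of it.

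Genes annotated to the response to ABA split evenly. Of 275 tested genes of that list 9 were higher and 9 lower (3.27% each, against 1.40% and 1.25% of all tested genes). The median log2 fold change was 0.09 (-0.04 to 0.12 over the alternatives). Among the 199 genes of the list for water deprivation, 12 were higher (6.03%) and 1 lower (0.503%). Their median was 0.10 (-0.03 to 0.14 over the alternatives). HORVU3Hr1G069590, known only by the GO terms for osmotic stress and ABA, had 10.6, 17.7 and 5.83 CPM in the drought libraries, against 1.4, 0.288 and 0.395 CPM in control (log2 fold change 4.02 ± 0.82). HORVU7Hr1G041810, a DNA-binding factor of the same list, had 5.34, 3.19 and 4.76 CPM under drought, against 0.384, 0.288 and 0.277 CPM in control (log2 fold change 3.79 ± 0.68). Control library 1 was the highest control for both, and it still lay below every drought library. HORVU6Hr1G083960, annotated to water deprivation, cold acclimation and ABA, had 6.25, 2.63 and 3.24 CPM under drought, against 0, 0 and 0 CPM in control. With 0 of its 647 BCS24 counts in control, it was at least 74.1-fold higher under drought, taking 3 counts per library as the floor (adjusted p 0.0412). Without control library 1, HORVU3Hr1G069590 was at 5.04.

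Other members of these lists included known regulators. HORVU0Hr1G016540, described as CRT/DRE binding factor 1 and so of the class that switches on cold and dehydration genes, had 353 counts under drought and 1 in control. The ratio was 366 after scaling, with a 95% counting interval of 65.2 to 14481 (adjusted p 0.0046). Its levels were 2.79, 2.97 and 0.923 CPM under drought, against 0, 0.018 and 0 CPM in control. An ABA-responsive bZIP factor, HORVU3Hr1G083250, had 2.58, 2.86 and 3.69 CPM under drought, against 1.25, 0.884 and 0.652 CPM in control (log2 fold change 1.71 ± 0.37), and it was the only one of 14 tested genes of its family (K14432) to pass. It overlaps HORVU3Hr1G083260, of the same family, on the other strand of chromosome 3H. That gene had mean levels of 18.9 CPM under drought and 18.4 CPM in control (log2 fold change 0.04). Whether counting used the strand is not given, so the reads of HORVU3Hr1G083250 cannot be assigned with certainty. Phospholipase D HORVU5Hr1G084740, whose product phosphatidic acid takes part in ABA signalling, had 43.1, 45.6 and 18.5 CPM under drought, against 12.9, 11.8 and 10.6 CPM in control (log2 fold change 1.60 ± 0.31). Drought library 3 was the lowest of its condition for phospholipase D and above all controls. A two-pore K+ channel, HORVU4Hr1G002240, rose by 1.34 and the ATPase-annotated HORVU7Hr1G098220 by 2.61 on the log2 scale. When drought library 1, 2 or 3 was left out, 1, 1 and 5 of the 8 genes named here and in the paragraph before passed. When control library 1, 2 or 3 was left out, 4, 1 and 1 passed. The single control count of HORVU0Hr1G016540 was in library 2, so control held 0 counts without it.

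SnRK1 is a kinase that senses energy shortage. Of 8 genes that the table names as its subunits 1 was higher and 1 lower. HvSnRK1gamma (HORVU2Hr1G069060) had 26.2, 22.1 and 22 CPM in the drought libraries, against 64.9, 64.6 and 72.6 CPM in control (log2 fold change -1.52 ± 0.20, adjusted p 0.00897). HvSnRK1alpha1 (HORVU3Hr1G069190), a catalytic subunit, had 242, 227 and 192 CPM under drought, against 154, 142 and 133 CPM in control (log2 fold change 0.62 ± 0.12). Each stood apart from its controls in all 3 drought libraries. Still past the threshold were 1, 1 and 2 of the 2 genes without drought library 1, 2 or 3, and 1, 1 and 0 without control library 1, 2 or 3.

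The genes of jasmonic acid and ethylene synthesis that passed were lower, 1 of 22 and 1 of 20. 12-oxophytodienoate reductase HORVU2Hr1G004230 (K05894), of the class that makes jasmonic acid precursors, had 3.58, 10.3 and 2.35 CPM in the drought libraries, against 55.9, 58.6 and 69.7 CPM in control (log2 fold change -3.50 ± 0.63, adjusted p 0.0255). It was the only one of 7 tested genes of its family to pass. HORVU6Hr1G079640, a 1-aminocyclopropane-1-carboxylate oxidase (K05933) that makes ethylene, had 3.48, 2.88 and 3.53 CPM under drought, against 8.63, 16.5 and 11.6 CPM in control (log2 fold change -1.89 ± 0.34), as the only one of 15. HORVU4Hr1G000700, an ethylene-responsive factor (K14516), fell by 3.06 on the log2 scale. Jasmonic acid signalling counted 2 higher and 1 lower of 59 genes and ethylene signalling 2 higher and 1 lower of 81. The 2 jasmonic acid genes that rose were HORVU1Hr1G087630, a redox gene (2.87), and HORVU3Hr1G019510, a zinc-binding gene also annotated to leaf senescence (0.96). Without drought library 2, HORVU2Hr1G004230 was at -4.38.

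Auxin genes moved in both directions. Of 97 genes annotated to auxin signalling, 2 were higher and 3 lower, with a median of -0.02 (-0.15 to 0.01 over the alternatives). HORVU2Hr1G103930, a transcription factor annotated to auxin and to shoot meristem specification, had 0.339, 0.541 and 0.398 CPM in the drought libraries, against 4.21, 7.01 and 8.32 CPM in control (log2 fold change -3.93 ± 0.54, adjusted p 0.0117). Its BCS8 log2 fold change was 0.77. HORVU7Hr1G072670, with the same terms, was at -1.68, and HORVU1Hr1G065030 (K03875) at -0.89. HORVU5Hr1G085680, of the small auxin-up RNA family (K14488) and annotated to auxin transport and organ growth, had 2.03, 0.927 and 3.09 CPM under drought, against 15.1, 12.1 and 15.2 CPM in control (log2 fold change -2.81 ± 0.46). The drought libraries of both genes lay below all their controls. The 2 higher genes were auxin response factors HORVU7Hr1G033820 and HORVU7Hr1G101270 (K14486, 0.85 and 0.83), of 28 tested. Of 7 gibberellin receptors (K14493) 2 were higher, HORVU1Hr1G063450 at 1.79 and HORVU7Hr1G097660 at 0.91. A brassinosteroid gene, HORVU2Hr1G025160, was lower at -0.92. Together with the jasmonic acid and ethylene genes of the paragraph before, 14 named genes passed. Calls for 0, 3 and 6 of these 14 remained without drought library 1, 2 or 3. Without control library 1, 2 or 3, calls for 10, 0 and 0 remained.

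Some genes of methyl supply and recycling rose, in families chosen after their values were seen, and none of the 6 genes annotated by GO to methionine biosynthesis passed. In the methionine synthase family (K00549) 1 of 5 tested genes was higher and 0 were lower. That gene, HvMS (HORVU5Hr1G006780), had 5945, 5882 and 4433 CPM in the drought libraries, against 1799, 1542 and 1671 CPM in control (log2 fold change 1.70 ± 0.24, adjusted p 0.0126). Its drought libraries were all more than 2-fold above its controls. S-adenosylmethionine synthases (K00789) turn methionine into the methyl donor, and 4 of 6 tested were higher. HORVU6Hr1G063490 had 1466, 1562 and 1524 CPM under drought, against 524, 411 and 562 CPM in control (log2 fold change 1.61 ± 0.24), and HORVU6Hr1G063540 had 296, 342 and 273 CPM under drought, against 132, 111 and 136 CPM in control (log2 fold change 1.26 ± 0.18). HORVU6Hr1G063560 and HORVU6Hr1G063570 had log2 fold changes of 0.74 ± 0.15 and 0.75 ± 0.14. The last 2 lie side by side on chromosome 6H, had near-equal counts in every library, and may share reads, so they are uncertain as separate genes.

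Enzymes that act after methyl transfer also had members that rose. Both tested adenosylhomocysteinases (K01251), which split the spent donor, were higher. HORVU2Hr1G110120 had 1495, 1976 and 943 CPM in the drought libraries, against 469.5, 419.8 and 445 CPM in control (log2 fold change 1.73 ± 0.24), and HORVU2Hr1G109370 had a log2 fold change of 1.20 ± 0.22. Drought library 3 was the lowest of its condition for HORVU2Hr1G110120 and still about 2-fold above the controls. Adenosine kinase HORVU6Hr1G058750, which removes the adenosine set free, had 408, 403 and 359 CPM under drought, against 238, 188 and 196 CPM in control (log2 fold change 0.91 ± 0.12). Serine hydroxymethyltransferase HORVU2Hr1G110110, a source of single carbon units, had 262, 299.7 and 169 CPM under drought, against 87.9, 80.2 and 72.9 CPM in control (log2 fold change 1.60 ± 0.23), and it was the only one of 4 tested (K00600) to pass. It lies next to the adenosylhomocysteinase HORVU2Hr1G110120 on chromosome 2H.

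Phosphoethanolamine N-methyltransferase (K05929) makes phosphocholine, the precursor of choline and glycine betaine. HORVU1Hr1G078350 had 3925, 3172 and 3004 CPM in the drought libraries, against 553, 957 and 762 CPM in control (log2 fold change 2.15 ± 0.39, adjusted p 0.0263), and HORVU3Hr1G064990 had 155, 201 and 105 CPM under drought, against 54.1, 68.7 and 54.3 CPM in control (log2 fold change 1.38 ± 0.29). They were 2 of the 4 tested members of the family. The first was among the most strongly counted genes of the response in all 3 drought libraries. In BCS8 the log2 fold changes of HORVU5Hr1G006780, HORVU6Hr1G063490, HORVU2Hr1G110120 and HORVU1Hr1G078350 were 0.15, 0.53, 0.52 and 0.61. The differences between the accessions did not pass for these 4 genes, at adjusted p 0.196, 0.225, 0.225 and 0.267. The methyl supply, recycling and phosphocholine genes named here and in the paragraphs before were 11. Without drought library 1, 2 or 3, 0, 3 and 10 of these 11 passed, and without control library 1, 2 or 3, 8, 0 and 0 did.

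In cysteine synthesis, which feeds methionine, 1 gene of each step passed, in opposite directions. HORVU6Hr1G063480, a cysteine synthase (K01738), had 63.1, 80.8 and 60.7 CPM in the drought libraries, against 13.1, 16.7 and 20.6 CPM in control (log2 fold change 2.02 ± 0.38) and was the only one of 10 tested to pass, in a family with a median of -0.05. Serine O-acetyltransferase HORVU4Hr1G071040 (K00640), the step before it and the only one of 5 tested to pass, had 5.12, 4.46 and 5.77 CPM under drought, against 12.6, 20.2 and 15.9 CPM in control (log2 fold change -1.67 ± 0.21, adjusted p 0.00792). The synthase was higher and the acetyltransferase lower in all 3 drought libraries. Leaving out drought library 1, 2 or 3 kept 1, 1 and 2 of the 2 genes past the threshold, and leaving out control library 1, 2 or 3 kept 1, 1 and 1.

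**Figure D2:**
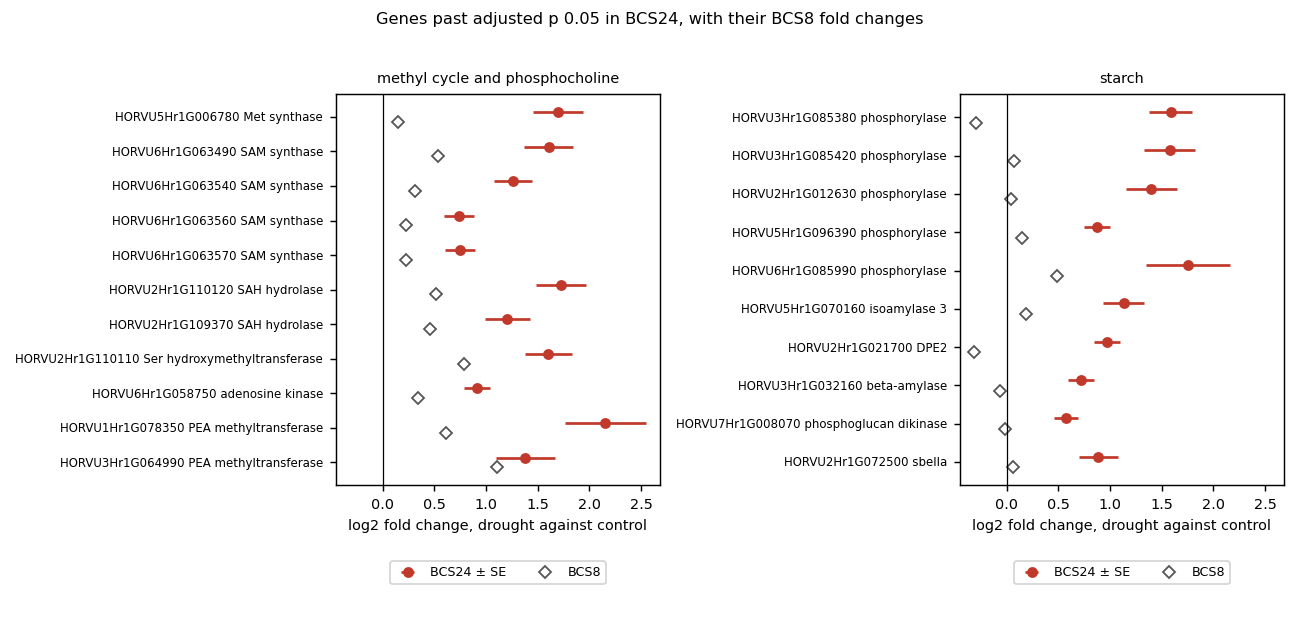
Log2 fold change of drought over control for named genes of methyl supply and phosphocholine (left) and of starch (right). Filled circles with standard errors are BCS24 and open diamonds are BCS8, drawn without error. Every circle lies right of 0, from 0.57 to 2.15. The diamonds lie between -0.31 and 1.11, and no difference between the accessions passed.

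The starch genes named here, most of them of starch breakdown, were higher. Of 16 genes annotated to starch breakdown 4 were higher and 1 lower, with a median of 0.40 (0.26 to 0.47 over the alternatives). Alpha-glucan phosphorylases (K00688) release glucose phosphate from glucan ends, and 5 of 6 tested were higher. HORVU3Hr1G085380 had 188, 126 and 157 CPM in the drought libraries, against 59, 52.1 and 45.9 CPM in control (log2 fold change 1.59 ± 0.21, adjusted p 0.00997). HORVU3Hr1G085420 had 244, 247 and 260 CPM under drought, against 113, 73.7 and 65.3 CPM in control (log2 fold change 1.58 ± 0.24). Control library 1 was the highest of the controls for both genes and below every drought library. HORVU5Hr1G096390, HORVU2Hr1G012630 and HORVU6Hr1G085990 had log2 fold changes of 0.87 ± 0.12, 1.40 ± 0.25 and 1.76 ± 0.41, the last at the threshold itself and at 2.26 FPKM under drought.

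Of 9 tested isoamylases (K01214) 2 were higher and 0 lower, with log2 fold changes from -0.78 to 1.18, and of 2 glucanotransferases (K00705) 1 was higher. Isoamylase 3 (HORVU5Hr1G070160), which removes branches, had 119, 114 and 122 CPM in the drought libraries, against 63.6, 50.5 and 47.9 CPM in control (log2 fold change 1.13 ± 0.20). The glucanotransferase DPE2 (HORVU2Hr1G021700), which in Arabidopsis uses maltose exported from the plastid, had 162, 133 and 175 CPM under drought, against 82.8, 86.1 and 71.2 CPM in control (log2 fold change 0.97 ± 0.13, adjusted p 0.00897). Both were fully separate from their controls. Beta-amylase HORVU3Hr1G032160, the only one of 7 tested (K01177, median 0.06) to pass, and phosphoglucan, water dikinase HORVU7Hr1G008070, which loosens the granule surface, were at 0.72 ± 0.13 and 0.57 ± 0.12. The starch branching enzyme gene sbeIIa (HORVU2Hr1G072500), which acts in synthesis, had 456, 389.5 and 402 CPM under drought, against 281, 189.8 and 205 CPM in control (log2 fold change 0.89 ± 0.19), as the only one of 8 tested (K00700) to pass. The GO list of starch synthesis, which does not hold sbeIIa, counted 1 higher and 1 lower of 22 genes. Both were fructokinases, and the list's median was 0.47 (0.29 to 0.52 over the alternatives). In BCS8 the phosphorylase HORVU3Hr1G085380 was at -0.30 and DPE2 HORVU2Hr1G021700 at -0.31. The differences from BCS24 were 1.88 ± 0.29 and 1.28 ± 0.18, each at an adjusted p of 0.107. Of the 10 starch genes named as higher here and in the paragraph before, 1, 4 and 7 passed without drought library 1, 2 or 3. Without control library 1, 2 or 3, 9, 1 and 0 passed.

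Sugar cleavage and interconversion changed gene by gene. Of 10 tested invertases (K01193), which split sucrose, 2 were higher and 1 was lower. HORVU2Hr1G109120 had 30.3, 39.7 and 20.3 CPM in the drought libraries, against 65.1, 225 and 143 CPM in control (log2 fold change -2.26 ± 0.51). Its controls ranged widely, and drought library 2 was nearest to control library 1. Its BCS8 log2 fold change was 1.31. HORVU2Hr1G118790 had 12.8, 7.99 and 12.3 CPM under drought, against 2.84, 4.53 and 1.82 CPM in control, and its neighbour HORVU2Hr1G118820 had 4.27, 3.46 and 4.32 CPM under drought, against 1.15, 1.43 and 0.593 CPM in control, with log2 fold changes of 1.85 ± 0.39 and 1.92 ± 0.37. A pair of neighbouring glucose-6-phosphate 1-epimerases (K01792), HORVU2Hr1G101360 and HORVU2Hr1G101370, were lower at -1.27 ± 0.20 and -1.44 ± 0.27. A trehalose-phosphate synthase gene, HORVU3Hr1G071570 (K16055), had 149.7, 129.8 and 152 CPM under drought, against 256, 264 and 248 CPM in control (log2 fold change -0.83 ± 0.14), the only one of 18 trehalose genes to pass. UTP-glucose-1-phosphate uridylyltransferase HORVU5Hr1G087810 was at 0.54, and cytosolic fructose-1,6-bisphosphatase HORVU1Hr1G074330, an enzyme of sucrose synthesis, at -1.47. Fructokinases HORVU7Hr1G038710 and HORVU7Hr1G076150 were at 0.65 and -1.06.

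In glycolysis, some pyruvate kinase genes were higher and some 6-phosphofructokinase genes lower. Of 74 genes annotated to glycolysis 5 were higher and 1 lower, with a median of 0.18 (0.04 to 0.23 over the alternatives). Pyruvate kinase HORVU1Hr1G054380 had 145, 174 and 174 CPM in the drought libraries, against 90.8, 59 and 59.3 CPM in control (log2 fold change 1.24 ± 0.24), and HORVU2Hr1G040570 and HORVU2Hr1G119460 were at 0.54 and 0.53, so 3 of 12 members (K00873) were higher. Glucose-6-phosphate isomerase HORVU5Hr1G069850 was at 0.71. The acetyltransferase HORVU5Hr1G112850 and dihydrolipoyl dehydrogenase HORVU1Hr1G023060, parts of the complex that makes acetyl-CoA from pyruvate, were at 0.65 and 0.43. Of 13 tested 6-phosphofructokinases (K00850) 2 were lower, HORVU5Hr1G104050 and HORVU7Hr1G022500, at -1.83 and -0.56. Of 30 genes of the tricarboxylic acid cycle none passed. Together with the sugar genes of the paragraph before, 18 named genes passed. The threshold was still passed by 0, 1 and 9 of these 18 without drought library 1, 2 or 3. Without control library 1, 2 or 3 it was passed by 13, 0 and 0.

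At each end of the shunt through gamma-aminobutyric acid (GABA), an amino acid that builds up in stressed plants, 1 gene was higher. Glutamate decarboxylase HORVU3Hr1G003050, which makes GABA, had 429, 367 and 370.3 CPM in the drought libraries, against 199.9, 156 and 169.9 CPM in control (log2 fold change 1.15 ± 0.19). The other tested members of its family (K01580), HORVU2Hr1G078580 and HORVU4Hr1G008700, were at 0.13 and -0.71 (adjusted p 0.958 and 0.495). Succinate-semialdehyde dehydrogenase HORVU6Hr1G031480, which ends the shunt, had 145, 140.3 and 135 CPM under drought, against 83.1, 49.1 and 59.3 CPM in control (log2 fold change 1.13 ± 0.20). All drought libraries exceeded all controls for both enzymes, as for every gene that passed with a rise. When drought library 1, 2 or 3 was left out, 0, 0 and 2 of the 2 genes passed, and 2, 0 and 0 passed when control library 1, 2 or 3 was left out. The proline genes did not pass. Pyrroline-5-carboxylate synthase HORVU1Hr1G072780 had 97.4, 197 and 60.0 CPM under drought, against 60.9, 80.4 and 64.9 CPM in control (log2 fold change 0.78 ± 0.44, adjusted p 0.351), with overlapping conditions.

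**Figure D3:**
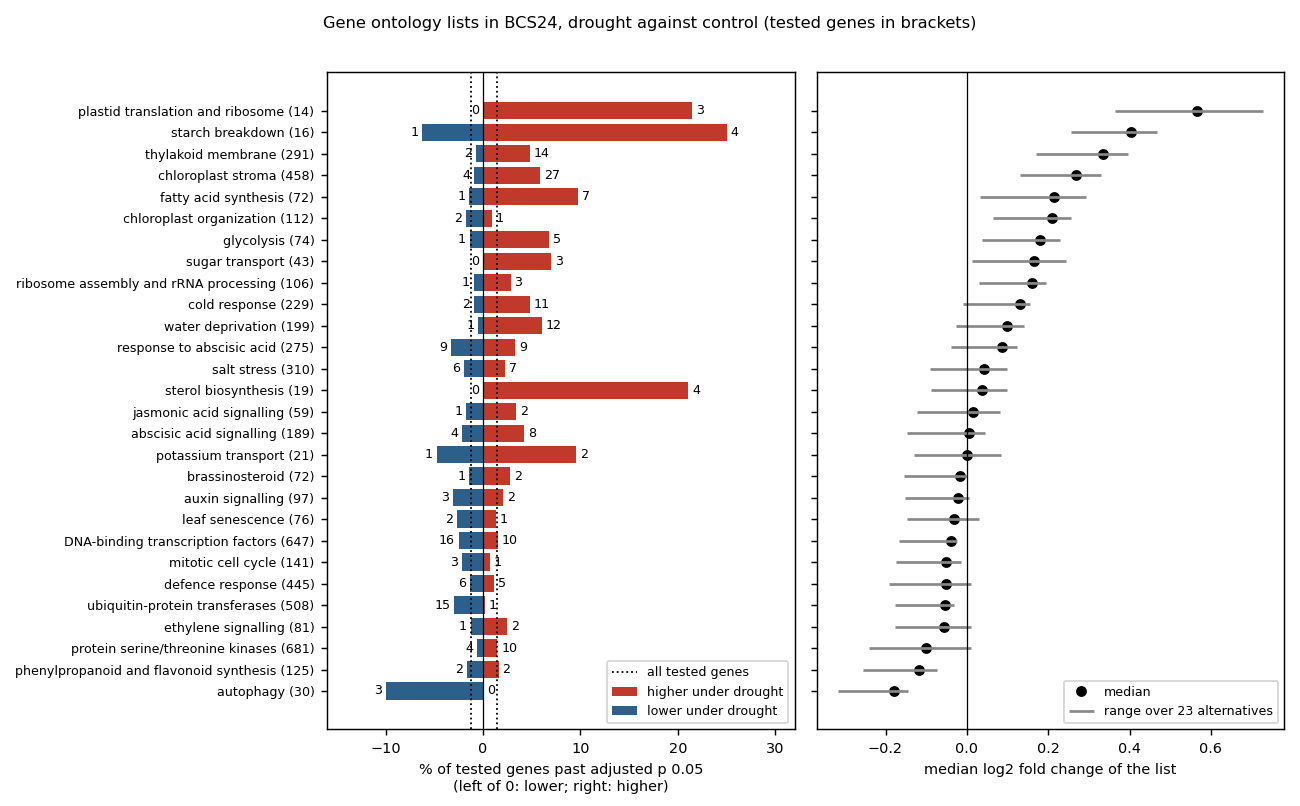
Gene ontology lists with at least 14 tested genes and at least 3 past the threshold in BCS24. Left, percent of tested genes higher (right of 0) and lower (left of 0) under drought, with the number of genes at each bar and the share over all tested genes as dotted lines, 1.40% higher and 1.25% lower. Right, median log2 fold change of each list as a circle with its range over the 23 alternatives as a line. Chloroplast stroma counts 27 higher against 4 lower, and ubiquitin-protein transferases 1 higher against 15 lower.

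Lists of chloroplast genes differed in direction. Of 458 genes annotated to the stroma 27 were higher and 4 lower, with a median of 0.27 (0.13 to 0.33 over the alternatives), and of 291 thylakoid membrane genes 14 were higher and 2 lower, with a median of 0.33 (0.17 to 0.40 over the alternatives). Positive fold changes were held by 359 stroma genes and 249 thylakoid genes, where 49.5% of all tested genes were positive. The KEGG pathway for photosynthesis ran the other way, with 0 of 155 genes higher, 1 lower and a median of -0.24. The GO lists of the photosystems did not. Of 9 photosystem I genes 8 were positive, with a median of 0.24 (0.0016 to 0.32 over the alternatives). Of 21 photosystem II genes 18 were positive, with a median of 0.53 (0.27 to 0.88 over the alternatives). The 4 stroma genes with the largest changes were the 9-cis-epoxycarotenoid dioxygenases described above. The sums of the leaf markers given above, a set that also takes in ribulose bisphosphate carboxylase small chain, overlapped between conditions, with drought library 3 the highest.

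Single steps of photosynthesis rarely passed. All 20 tested members of light-harvesting complex II (K08912) had positive fold changes, with a median of 0.38, and 2 passed. HORVU5Hr1G087250 had 1767, 1707 and 2633 CPM in the drought libraries, against 1129, 792 and 954 CPM in control (log2 fold change 1.09 ± 0.24), and HORVU5Hr1G124160 had nearly the same counts and a log2 fold change of 1.09 ± 0.25, so these 2 may share reads. None of 8 Calvin cycle genes, 26 chlorophyll synthesis genes or 33 photorespiration genes passed, with medians of 0.55 (0.32 to 0.64 over the alternatives), 0.45 (0.27 to 0.46 over the alternatives) and 0.09 (-0.04 to 0.11 over the alternatives). One photosystem II gene fell. HORVU2Hr1G038940 (K03541, PsbR) had 239, 297 and 333 CPM under drought, against 689, 1367 and 1998 CPM in control (log2 fold change -2.22 ± 0.46, adjusted p 0.0393). In BCS8 it was at 2.07, and the difference of -4.29 ± 0.65 had an adjusted p of 0.107. The other tested member of K03541, HORVU6Hr1G085170, counted far more strongly, had 5378, 6070 and 6425 CPM under drought, against 5274, 4686 and 5065 CPM in control (log2 fold change 0.25 ± 0.16, adjusted p 0.399). Still past the threshold were 0, 0 and 0 of the 3 genes without drought library 1, 2 or 3, and 1, 0 and 0 without control library 1, 2 or 3.

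Plastid translation rose in 3 of 14 genes, with a median of 0.57 (0.36 to 0.73 over the alternatives). HORVU6Hr1G004860, a chloroplast stem-loop binding protein, had 234, 223 and 285 CPM in the drought libraries, against 160.1, 105 and 108 CPM in control (log2 fold change 1.0 ± 0.22). HORVU4Hr1G052270 and HORVU7Hr1G045830, known by this GO term, were at 1.06 and 0.83, and the KO number of the first (K05605) names a hydrolase of valine breakdown instead. Calls for 0, 1 and 1 of the 3 genes remained without drought library 1, 2 or 3, and for 3, 0 and 0 without control library 1, 2 or 3. Of 135 and 84 genes of the large and small cytosolic ribosomal subunits none passed, with medians of 0.15 (0.01 to 0.21 over the alternatives) and 0.11 (-0.01 to 0.19 over the alternatives).

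A pair of sterol genes rose under nearly every setting. Of 19 sterol genes 4 were higher and 0 were lower, with a median of 0.04 (-0.09 to 0.10 over the alternatives). C-4 methylsterol oxidase (K14423) removes methyl groups from the sterol ring. HORVU4Hr1G018150 had 1191, 785 and 1016 CPM in the drought libraries, against 84.9, 61.8 and 79.8 CPM in control (log2 fold change 3.72 ± 0.44, adjusted p 0.0074), and its neighbour on chromosome 4H, HORVU4Hr1G018180, had 102, 67.9 and 84.5 CPM under drought, against 5.99, 4.49 and 6.96 CPM in control (log2 fold change 3.86 ± 0.43, adjusted p 0.00505). Both rose more than 10-fold with little spread in either condition, and they passed under 21 and 22 of the 23 alternatives. The 2 genes share a KO number, ranked the drought libraries alike and may share reads, so they are uncertain as separate rises. In BCS8 they were at 0.88 and 0.78, and the differences had adjusted p 0.196 and 0.178. Squalene monooxygenase HORVU4Hr1G065920 (K00511) was at 0.54, and HORVU5Hr1G079180 (K07748) at 0.53. Without drought library 1, 2 or 3, 2, 2 and 3 of the 4 genes passed, and without control library 1, 2 or 3, 3, 2 and 1 did.

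Fatty acid synthesis counted 7 higher and 1 lower of 72 genes, with a median of 0.22 (0.03 to 0.29 over the alternatives). The lower gene was HvSnRK1gamma (HORVU2Hr1G069060), which the list also holds. A 3-oxoacyl-carrier-protein synthase, HORVU2Hr1G030950 (K09458), had 290.2, 274 and 304 CPM in the drought libraries, against 151, 116 and 123 CPM in control (log2 fold change 1.16 ± 0.16). Malonyltransferase HORVU4Hr1G055240 (K00645), which loads the chain's building block, had 40.0, 42.5 and 42.8 CPM under drought, against 27.3, 23 and 22.7 CPM in control (log2 fold change 0.78 ± 0.10, adjusted p 0.00743). Both were higher in all 3 drought libraries. The hydrolase that frees finished chains, HORVU5Hr1G076030, malic enzyme HORVU3Hr1G019790 and ATP citrate lyase HORVU4Hr1G028600 (K01648) were at 0.53, 0.82 and 0.56.

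Membrane lipid genes moved in both directions. HORVU6Hr1G070420, an omega-6 fatty acid desaturase (K10256), had 718, 650 and 1058 CPM in the drought libraries, against 395, 280 and 288 CPM in control (log2 fold change 1.33 ± 0.25). HORVU5Hr1G045990, an enzyme of phosphatidylethanolamine synthesis (K00967), was at 1.15. A secretory phospholipase A2, HORVU4Hr1G006850 (K01047), had 0.376, 0.154 and 0.235 CPM under drought, against 4.53, 11.7 and 11.9 CPM in control. Its log2 fold change of -5.18 ± 0.53 (adjusted p 0.00374) was among the largest falls of a gene with a KO number. Every drought library was more than 10-fold below every control. With the fatty acid genes of the paragraph before, other than HvSnRK1gamma, 8 named genes passed. Leaving out drought library 1, 2 or 3 kept 2, 3 and 7 of these 8 past the threshold. Leaving out control library 1, 2 or 3 kept 5, 2 and 1.

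Rises of over 5 on the log2 scale occurred among genes known only by GO. HORVU2Hr1G095880, annotated to Rab GTPase binding and the regulation of exocytosis, had 89.7, 185 and 67.9 CPM in the drought libraries, against 4.07, 3.05 and 2.35 CPM in control (log2 fold change 5.17 ± 0.80, adjusted p 0.0152). HORVU5Hr1G113060 and HORVU5Hr1G045770, annotated to actin filament depolymerization, had 23.9, 19.9 and 4.76 CPM under drought, against 0.384, 0.523 and 0.356 CPM in control and 25.7, 21.1 and 4.76 CPM under drought, against 0.468, 0.541 and 0.395 CPM in control. Their log2 fold changes were 5.26 ± 1.02 and 5.19 ± 0.90. The 2 actin genes had near-equal counts and may share reads. Drought library 3 was much lower than the other drought libraries for both, and above every control. Capping protein HORVU2Hr1G019650 (K10364) and formin HORVU3Hr1G089510, which also act on actin, were at 0.78 and 1.41. Of the 5 genes, 0, 1 and 4 passed without drought library 1, 2 or 3 and 3, 0 and 0 without control library 1, 2 or 3.

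The cell wall genes named here were higher. HORVU2Hr1G103150, annotated to pectinesterase activity and its inhibition, had 28.8, 43.5 and 32.1 CPM in the drought libraries, against 2.1, 1.23 and 1.66 CPM in control (log2 fold change 4.38 ± 0.73, adjusted p 0.021). All its drought libraries were more than 10-fold above its controls. Cellulose synthase HORVU5Hr1G110000 had 245, 264 and 175 CPM under drought, against 111, 129.6 and 102 CPM in control (log2 fold change 1.0 ± 0.19), the only one of 31 cellulose genes to pass. Neighbouring endoglucanases HORVU7Hr1G040690 and HORVU7Hr1G040720 (K01179) were at 1.81 and 1.93. They were the only 2 of 11 tested members of that family to pass, and its log2 fold changes ran from -1.25 to 2.99. The wall-located HORVU6Hr1G077770, annotated to the brassinosteroid response, was at 2.64. None of 29 xyloglucan, 10 cutin or 17 wax genes passed, and of 20 glucan endo-1,3-beta-glucosidases (K19891) 1 was higher and 2 were lower. The threshold was still passed by 0, 0 and 3 of the 5 genes without drought library 1, 2 or 3, and by 2, 0 and 0 without control library 1, 2 or 3.

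**Figure D4:**
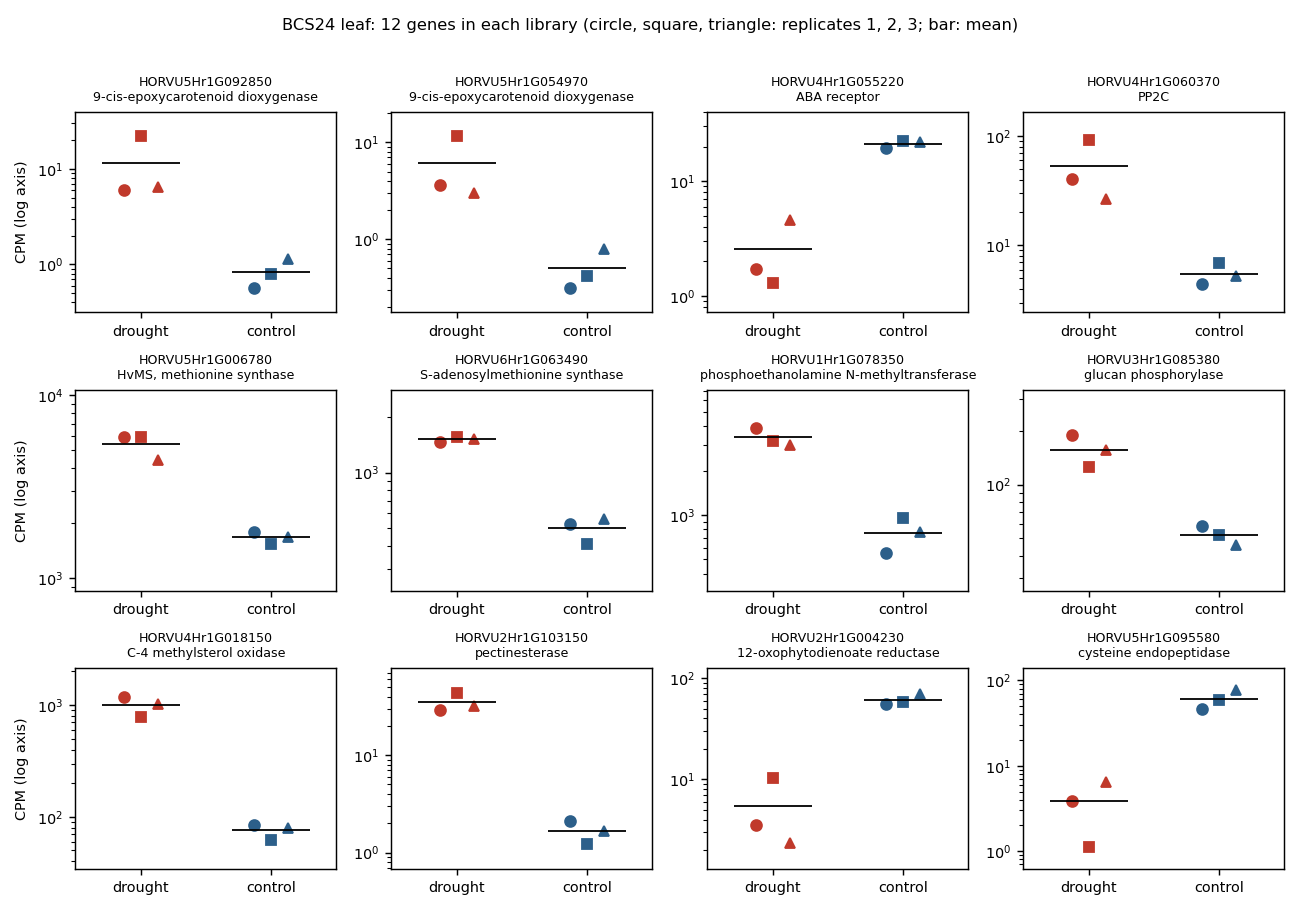
Normalised read counts (CPM, log axis) of 12 genes in each BCS24 library, drought at left and control at right. Circles, squares and triangles are replicates 1, 2 and 3, and bars are means. The conditions do not overlap in any of the 12 panels, as for all 460 genes that passed. Drought replicate 2 is the highest point of the dioxygenases and of the type 2C phosphatase shown, and drought replicate 3 is the highest drought point of the ABA receptor.

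Ubiquitin-protein transferases mark proteins for removal. Of 508 genes with that annotation 15 were lower (2.95%, against 1.25% of all tested genes) and 1 was higher (0.197%, against 1.40%). The median was -0.05 (-0.18 to -0.03 over the alternatives). HORVU5Hr1G011730 (K10666), of the endoplasmic reticulum, had 0.753, 0.85 and 0.452 CPM in the drought libraries, against 3.66, 13.4 and 8.48 CPM in control (log2 fold change -3.63 ± 0.49, adjusted p 0.0117). HORVU5Hr1G012740 had 5.16, 1.49 and 2.86 CPM under drought, against 14.2, 22.7 and 21.4 CPM in control (log2 fold change -2.62 ± 0.47), and its KO number (K01210) names a glucosidase instead. HORVU6Hr1G042830, of an SCF complex, was at -1.24. The single rise was HORVU7Hr1G076440, a protein kinase gene with 54.5, 64 and 51 CPM under drought, against 14.1, 11.9 and 9.65 CPM in control (log2 fold change 2.25 ± 0.32). It overlaps a further higher gene on the other strand of chromosome 7H, and whether counting used the strand is not given, so its reads cannot be assigned with certainty. When drought library 1, 2 or 3 was left out, 1, 2 and 3 of the 4 genes passed, and 4, 1 and 0 passed when control library 1, 2 or 3 was left out.

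Some autophagy genes fell by small amounts. Of 30 genes annotated to autophagy 3 were lower and 0 were higher, with a median of -0.18 (-0.32 to -0.14 over the alternatives), and 6 had a positive fold change. The 3 were HORVU4Hr1G060450 (K08269, a kinase that starts autophagy) at -0.52 ± 0.11, autophagy-related protein 18a (HORVU3Hr1G098020) at -0.37 ± 0.08 and autophagy-related protein 3 (HORVU1Hr1G056110) at -0.37 ± 0.08. Outside that list, 2 of 5 members of K08341, the ATG8 family that coats the forming membrane, were lower. HORVU2Hr1G046860 had 204, 200 and 201 CPM in the drought libraries, against 292, 273 and 282 CPM in control (log2 fold change -0.49 ± 0.09), and HORVU5Hr1G049440 had 21, 22.1 and 21.5 CPM under drought, against 32.6, 34 and 32.3 CPM in control (log2 fold change -0.61 ± 0.10). The spread within each condition was small for both. Still past the threshold were 0, 0 and 1 of the 5 genes without drought library 1, 2 or 3, and 2, 0 and 0 without control library 1, 2 or 3.

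Of 9 tested cysteine proteases of K01365, 2 were lower and 0 were higher. The family's median log2 fold change was 0.14, with a range of -3.98 to 1.49, and 6 of the 9 were positive. HORVU5Hr1G095580 had 3.86, 1.12 and 6.53 CPM in the drought libraries, against 45.9, 59.2 and 77.5 CPM in control (log2 fold change -3.98 ± 0.74, adjusted p 0.0287). The abundant RD21B gene HORVU2Hr1G113460 had 1116, 926 and 960 CPM under drought, against 1726, 2130 and 1585 CPM in control (log2 fold change -0.86 ± 0.19). A further cysteine protease gene, HORVU5Hr1G082810, known by GO, had 839.9, 721 and 696 CPM under drought, against 1258, 1401 and 1217 CPM in control (log2 fold change -0.78 ± 0.14). In BCS8 the 3 genes were at -1.15, -0.91 and -0.76. Calls for 0, 0 and 1 of the 3 genes remained without drought library 1, 2 or 3, and for 2, 0 and 0 without control library 1, 2 or 3. Without drought library 3, HORVU5Hr1G095580 was at -4.58.

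Redox and metal genes known by GO gave large changes at low levels. Glutaredoxins HORVU5Hr1G010960 and HORVU5Hr1G025680 had 0.264, 0.232 and 0 CPM under drought, against 1.65, 4.54 and 4.68 CPM in control and 0.32, 0 and 0.199 CPM under drought, against 1.74, 4.26 and 4.8 CPM in control, with log2 fold changes of -4.45 ± 0.88 and -4.35 ± 0.95. Each reached 0 counts in 1 drought library. HORVU7Hr1G090970, annotated to metal ion transport, had 12.1, 8.38 and 1.68 CPM under drought, against 0.0501, 0.0721 and 0.0791 CPM in control (log2 fold change 6.75 ± 1.0, adjusted p 0.0144). Its lowest drought library was the third, still far above its controls. HORVU2Hr1G081560 and HORVU3Hr1G097770, with the same terms, were at 3.86 and 1.65. Without drought library 1, 2 or 3, 0, 1 and 3 of the 5 genes passed, and without control library 1, 2 or 3, 5, 0 and 0 did. Without drought library 3, HORVU5Hr1G010960 was at -3.83, and without drought library 1, HORVU5Hr1G025680 was at -5.14. HORVU2Hr1G081560 was at 3.05 without drought library 2, and at 3.24 and 4.8 without control libraries 1 and 2.

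Among 647 DNA-binding transcription factors 10 were higher (1.55%, against 1.40% of all tested genes) and 16 lower (2.47%, against 1.25%). The median was -0.04 (-0.17 to -0.02 over the alternatives). HORVU5Hr1G014170, an activator known by GO, had 216, 195 and 228 CPM in the drought libraries, against 693, 1015 and 889 CPM in control (log2 fold change -2.02 ± 0.20, adjusted p 0.00374) and passed under all 23 alternatives. HORVU1Hr1G091520, annotated to gravitropism and red light, had 5.04, 2.18 and 3.08 CPM under drought, against 40.4, 22.3 and 29.2 CPM in control (log2 fold change -3.16 ± 0.64). HvIRO2 (HORVU3Hr1G108680), a regulator of iron uptake genes in grasses, had 1.3, 1.18 and 0.941 CPM under drought, against 4.24, 5.21 and 9.59 CPM in control (log2 fold change -2.48 ± 0.39). Each of these 3 factors was below its controls in all 3 drought libraries. HORVU5Hr1G077010, annotated to hypoxia and salt, was lower at -2.24. Heat stress transcription factor A-2 (HORVU5Hr1G094380) had 19.6, 19.2 and 19.6 CPM under drought, against 10.1, 9.45 and 8.7 CPM in control (log2 fold change 1.05 ± 0.18), and HORVU4Hr1G090850, annotated to the transcriptional response to heat, was at 3.94. The zinc-binding HORVU2Hr1G081060 had 38 counts under drought and 2 in control, a ratio of 19.7 with a 95% counting interval of 5.09 to 168. Both control counts were in library 1, so control held 0 counts without it. Without control library 3, HORVU4Hr1G090850 was at 4.76 (adjusted p 0.0808). Leaving out drought library 1, 2 or 3 kept 1, 1 and 5 of the 7 genes past the threshold, and leaving out control library 1, 2 or 3 kept 5, 2 and 1.

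Cytochrome P450 genes of K12153, whose enzyme class makes aldoximes, the precursors of cyanogenic glucosides and nitriles, passed in 2 of 3 tested members. HORVU2Hr1G003470 had 7.98, 6.16 and 5.03 CPM in the drought libraries, against 0.351, 0.198 and 0.138 CPM in control and HORVU4Hr1G023730 had 4.67, 2.66 and 2.46 CPM under drought, against 0.451, 0.0902 and 0.0593 CPM in control, with log2 fold changes of 4.77 ± 1.0 and 3.98 ± 0.91. A beta-glucosidase, HORVU3Hr1G096910 (K01188), had 492, 347 and 302 CPM under drought, against 1032, 2821 and 1971 CPM in control (log2 fold change -2.35 ± 0.47). The P450 genes were higher and the glucosidase lower in all 3 drought libraries, and the glucosidase's control library 1 was the lowest control. Of the 3 genes, 0, 0 and 0 passed without drought library 1, 2 or 3 and 2, 0 and 0 without control library 1, 2 or 3. Without control library 1, HORVU4Hr1G023730 was at 5.39.

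Genes with no description, GO term or KO number made up 8.04% of the genes that passed, against 8.29% of all tested genes. Of these 37 genes, 10 were higher and 27 lower. The rule for naming gave 2 rises, HORVU2Hr1G035020 at 15.7, 14.4 and 12.5 CPM under drought, against 1.59, 0.234 and 0.474 CPM in control and HORVU7Hr1G076460 at 4.29, 3.9 and 3.58 CPM under drought, against 0.751, 0.866 and 0.435 CPM in control. It gave 2 falls, HORVU1Hr1G071380 at 0.0565, 0.29 and 0.0362 CPM under drought, against 3.11, 4.67 and 3.42 CPM in control and HORVU7Hr1G036960 at 0.264, 0.29 and 0.814 CPM under drought, against 11.8, 16.9 and 7.32 CPM in control. Their log2 fold changes were 4.20 ± 0.96, 2.51 ± 0.37, -4.86 ± 0.75 and -4.71 ± 0.84. HORVU7Hr1G076460 lies next to HORVU7Hr1G076450 on the same strand of chromosome 7H, and that gene was at 2.50. HORVU7Hr1G076450 is the gene that overlaps the kinase gene HORVU7Hr1G076440 described above. Whether HORVU7Hr1G076460 is a separate gene was not tested. The threshold was still passed by 0, 2 and 3 of the 4 genes without drought library 1, 2 or 3, and by 4, 0 and 0 without control library 1, 2 or 3. HORVU2Hr1G028760 and HORVU2Hr1G028780, annotated only to protein binding, were lower at -3.54 ± 0.72 and -3.45 ± 0.74. The largest fall by the rule was a small subunit ribosomal RNA, ENSRNA049489482, with 0.0376, 0.0965 and 0.0543 CPM under drought, against 0.15, 17.8 and 1.86 CPM in control. Control library 2 carried most of that level, so the fall moves with the ribosomal RNA shares given above. Its log2 fold change was -6.67 as reported, -3.95 without control library 2 (adjusted p 0.137) and -7.26 without control library 1. Without control library 1, HORVU2Hr1G035020 was at 5.31. HORVU1Hr1G071380 was at -6.27 without drought library 2, and HORVU7Hr1G036960 at -5.41 without drought library 3.

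Some genes that passed lay next to each other. Of 452 that are placed on a chromosome, 56 (12.4%) had a neighbouring tested gene that also passed, and 5.37% of the 16422 placed tested genes had such a neighbour. There were 30 such pairs, 24 in the same direction and 6 in opposite directions, and 2 of them overlapped in position. The pairs included the sterol oxidases, the S-adenosylmethionine synthases, the invertases, the epimerases and the endoglucanases named above. In the deposited coordinates, whose genome build is not given in the sources used here, the sterol oxidase pair HORVU4Hr1G018150 and HORVU4Hr1G018180 spans chromosome 4H from 81552157 to 81638197. The S-adenosylmethionine synthases HORVU6Hr1G063560 and HORVU6Hr1G063570 span chromosome 6H from 428606082 to 428616832.

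Some themes often measured in drought showed no gene past the threshold, and others had a few. Of 25 water channels none passed, 8 had a positive fold change and the median was -0.30 (-0.45 to -0.15 over the alternatives). The 2 with the highest levels, HORVU2Hr1G096360 and HORVU5Hr1G084230, were at -0.16 and 1.16 (adjusted p 0.818 and 0.196). None of 8 proline, 27 gibberellin, 33 cytokinin, 38 beta-oxidation or 19 DNA replication genes passed, and the gibberellin list does not hold the 2 receptors given above. Of 186 folding genes 1 was higher and 1 lower, and of 76 leaf senescence genes 1 was higher and 2 lower. Of 445 defence genes 5 were higher (1.12%) and 6 lower (1.35%), near the shares of all tested genes (1.40 and 1.25%). Of 310 salt stress genes 7 were higher and 6 lower, and of 229 cold genes 11 were higher (4.8%, against 1.40% of all tested genes) and 2 lower, with medians of 0.04 (-0.09 to 0.10 over the alternatives) and 0.13 (-0.01 to 0.15 over the alternatives). A gene below the threshold with this spread is not shown to be unchanged.

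No gene passed for a difference between the drought effects of the accessions (0.00% called), and 2166 had an unadjusted p under 0.05 (12.5%). DESeq2, run on the same counts, passed 629 genes for that difference. The lowest adjusted p over all genes was 0.0604 in edgeR. BCS24 and BCS8 values above are therefore given side by side, and for none of the genes named is a response restricted to BCS24 shown.

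**Figure D5:**
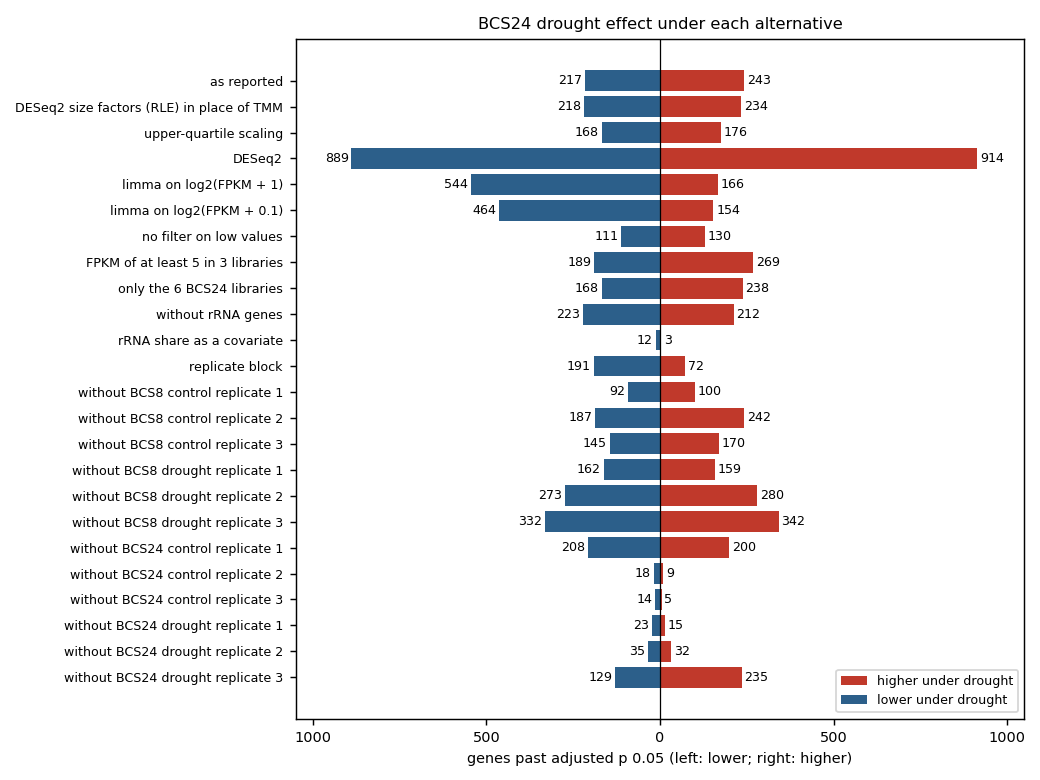
Number of genes past an adjusted p of 0.05 in BCS24, higher (right of 0) and lower (left of 0) under drought, as reported and under each of the 23 alternatives. As reported 243 were higher and 217 lower. The bars shrink to 3 and 12 with the ribosomal RNA share as a covariate and to 5 and 14 without control replicate 3, and reach 914 and 889 with DESeq2.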

How the data were processed

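Leaf RNA of both accessions, 3 libraries per group, was selected for poly(A) tails, built into stranded libraries and sequenced in pairs on an Illumina NovaSeq, per the labels' protocols. The authors deposited whole-number counts and FPKM per gene and library, per the file headers. The submitters' processing notes name the tools DESeq2, edgeR and StringTie 2.1.6 without saying what each did. They name no aligner or genome build, and do not say how reads shared by like genes were treated. A second deposited table of transcripts was not used.

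The main test was edgeR's quasi-likelihood F test (edgeR 4.0.16 in R 4.3.3) on TMM-scaled counts, in 1 fit of 12 libraries with 1 coefficient for each of 4 groups (8 residual degrees of freedom). Benjamini-Hochberg adjustment ran over 17342 genes, at a threshold of 0.05. The contrasts were BCS24 drought minus control, and that effect minus the same one in BCS8. A standard error is the absolute log2 fold change divided by the root of F. DESeq2 1.42.0 and limma 3.58.1 served as alternatives, with scaling, filters on low values, ribosomal RNA, a replicate block and each library left out. Library measures were compared by exact permutation tests, 2-sided. The script was tested on simulated data.

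Members and lists were chosen with earlier results of these data known. Named genes are the 12 largest rises and 12 largest falls that passed with a mean of at least 5 FPKM in the higher group and no overlap, plus up to 4 members of each list described, or its 2 most highly expressed where none passed. KO families, their members and other genes named with them were chosen after their values were seen. KO numbers come from the deposited table and their meanings from general knowledge. An annotation says how a gene was labelled, not what it does in barley leaf. Intervals of counts cover counting error only. No sequence is shown.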

Additional observations from a re-analysis of the deposited data

Results flagged for a closer look

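The mean make-up of the libraries differed between drought and control in opposite directions in BCS24 and BCS8. The statistic was the difference between the accessions' drought effects. Its p-values came from permuting drought and control within each accession, exactly, over 400 regroupings, with adjustment over 3 measures. Such permuting assumes no drought effect in either accession, so a low p alone does not show unequal effects. With total counts and the share of organelle genes added, the adjusted p over 5 measures was 0.025 for the number of genes, 0.025 for the 10 most counted genes and 0.0562 for ribosomal RNA.

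The number of genes at 1 FPKM or more changed by -468.67 with drought in BCS24 and by 339 in BCS8, a difference of -807.67 (p 0.005, adjusted p 0.015). It was 15626, 15306 and 15593 genes in the BCS24 drought libraries, against 15843, 16020 and 16068 in control. In BCS8 it was 16319, 16159 and 15975 genes under drought, against 15829, 15771 and 15836 in control.

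The share of counts in the 10 most counted genes changed by 1.52 percentage points in BCS24 and by -0.897 in BCS8, a difference of 2.42 (p 0.01, adjusted p 0.015). The share of ribosomal RNA changed by -0.865 percentage points in BCS24 and by 0.875 in BCS8, a difference of -1.74 (p 0.035, adjusted p 0.035). Within BCS24 alone the ribosomal RNA shares of the conditions overlapped, at an exact permutation p of 0.3. What part these measures have in the gene results was not tested.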

How the results depend on the processing

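All 460 genes had the same sign in every alternative that gave a value, 85 of them passed in at least 18 of 23, and the median gene passed in 13. As none of the 460 overlapped between conditions, the kept sign is little support. Against 460 genes (243 higher, 217 lower), DESeq2 passed 1803 (914 and 889), limma on log2(FPKM + 1) 710 (166 and 544) and on log2(FPKM + 0.1) 618 (154 and 464). Testing without a filter passed 241 (130 and 111). With the ribosomal RNA share as a covariate 15 passed (3 and 12). The cause of these shifts was not tested, except that no filter means more genes tested. Leaving out 1 library gave 19 to 674 genes, 5 to 342 higher and 14 to 332 lower. The lowest counts were 19 without BCS24 control library 3, 27 without control library 2, 38 without drought library 1 and 67 without drought library 2, and without BCS8 control library 1 it was 192. The highest was 674 without BCS8 drought library 3. No list had more than 4 genes past the threshold without BCS24 control library 2 or 3 or drought library 1 or 2.

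For the difference between the accessions, where 0 genes passed, DESeq2 passed 629, limma 11 and 6 with pseudocounts of 1 and 0.1, the filter at 5 FPKM 1, and leaving out 1 library 0 to 31. A replicate block passed 263 genes for drought (72 and 191), 117 of them among the 460, and 170 for the difference. The deviations of same-numbered BCS24 libraries from their group means correlated at 0.123, 0.224 and -0.0899. These values do not settle whether equal numbers share an origin. For number 2 alone did both libraries correlate best with each other.

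Depth limits the rarest genes, such as those at 0 to 2 counts in a condition, for which bounds or counting intervals are given.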

Other observations

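Other groups held single genes past the threshold. HORVU7Hr1G028910, an inorganic diphosphatase annotated to the vacuole (K01507), had 211, 243 and 95.5 CPM in the drought libraries, against 65.3, 63.6 and 54.2 CPM in control (log2 fold change 1.59 ± 0.31), and its BCS8 log2 fold change was 0.13. Of 43 sugar transport genes 3 were higher and 0 lower, HORVU7Hr1G115370 at 1.22 ± 0.16 and HORVU5Hr1G060220 and HORVU5Hr1G060210 at 0.50 ± 0.08 and 0.46 ± 0.08. HORVU7Hr1G115370 had 61, 61.2 and 59.7 CPM under drought, against 30.2, 23.4 and 24.4 CPM in control. Of 21 potassium transport genes 2 were higher, both of them type 2C phosphatases described above, and a sodium/hydrogen exchanger, HORVU7Hr1G049400, was lower at -0.53 ± 0.11.

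Of 681 protein serine/threonine kinases 10 were higher (1.47%) and 4 lower (0.587%), against 1.40% and 1.25% of all tested genes. Their median log2 fold change was -0.10. HORVU6Hr1G081330, a membrane receptor kinase by GO, had 2.31, 4.02 and 2.1 CPM under drought, against 0.251, 0.198 and 0.494 CPM in control (log2 fold change 3.16 ± 0.64). HORVU1Hr1G092250, annotated to defence, had 0.884, 3.11 and 0.977 CPM under drought, against 8.85, 10.5 and 11.1 CPM in control (log2 fold change -2.61 ± 0.54, and -3.45 without drought library 2). Of 125 phenylpropanoid and flavonoid genes 2 were higher and 2 lower, all 4 of them glycosyltransferases, which attach sugars to small molecules. HORVU1Hr1G007810 had 49.1, 29.9 and 63.2 CPM under drought, against 12.7, 11.2 and 14.3 CPM in control (log2 fold change 1.90 ± 0.34), and HORVU6Hr1G078110 had 2.43, 2.14 and 2.62 CPM under drought, against 6.54, 10.3 and 9.82 CPM in control (log2 fold change -1.89 ± 0.33). An annexin, HORVU7Hr1G037080, a calcium-dependent membrane-binding protein, had 72.9, 67.2 and 47.3 CPM under drought, against 27.8, 18.3 and 23 CPM in control (log2 fold change 1.44 ± 0.31). The dehydroascorbate reductase DHAR3 (HORVU7Hr1G038770), which recycles ascorbate, had 52.9, 44.7 and 67.8 CPM under drought, against 35, 20.2 and 26.9 CPM in control (log2 fold change 1.01 ± 0.22). Cyclin-U1-1 (HORVU2Hr1G107830) had 10.4, 11.6 and 12.8 CPM under drought, against 21.4, 42.8 and 34.8 CPM in control (log2 fold change -1.51 ± 0.22), and of 141 mitotic genes 1 was higher and 3 were lower.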
